A study of Mus musculus with 8 samples.

Results

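The genes described here are 10 inflammatory chemokines, Ccl2, Ccl3, Ccl4, Ccl6, Ccl7, Ccl9, Cxcl1, Cxcl2, Cxcl5 and Cxcl16, chosen by their symbols from the 13387 genes of the count matrix. They were sorted by the cells they are best known from into 4 stromal chemokines (Ccl2, Ccl7, Cxcl1 and Cxcl5) and 6 myeloid chemokines (Ccl3, Ccl4, Ccl6, Ccl9, Cxcl2 and Cxcl16). This sorting is background knowledge, and bulk RNA does not tell which cell a transcript came from. Bulk RNA-Seq was performed on primary bone marrow megakaryocytes (MKs, the cells that release platelets) from C57BL/6 mice. The MKs were cultured for 18 hours either alone (4 libraries, no treatment) or together with mesenchymal stem cells (MSCs) from bone marrow of the same strain (4 libraries, referred to as cocultures), and the comparison asks how coculture with MSCs changes the transcripts collected. MKs were enriched from whole marrow by the surface protein CD41, a purification that other marrow cells can survive, and MSCs were sorted as CD45-Ter119-CD31-CD51+PDGFRα+ cells. The labels name the sequenced cells as megakaryocytes, whereas the study's methods describe platelets generated in the cultures and pooled from several wells. The mice were 8 to 12 weeks old.

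Chemokines are small secreted proteins that guide leukocytes by binding G protein-coupled receptors on their surface. Ccl2 and Ccl7 are ligands of Ccr2 and draw monocytes out of the marrow, Cxcl1, Cxcl2 and Cxcl5 are ligands of Cxcr2 and draw neutrophils, and Ccl3, Ccl6 and Ccl9 are ligands of Ccr1. Ccl4 is a close relative of Ccl3 that attracts macrophages and T cells. Cxcl16 is made as a membrane protein that binds Cxcr6 and is released by the protease Adam10. Transcription of many of them is turned on by NF-kB, which binds kB motifs in their promoters.

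Total counts ranged from 4939874 to 12523616 per library, and 3 counts, taken as the floor, equalled 0.283 to 0.660 CPM (counts per 1000000 counts of a library, its total adjusted by the TMM method). Coculture replicate 3 stood apart: 10735 genes had a count in it against 12406 to 13193 in the other libraries, and 1012 genes were at 0 in it although all 7 other libraries held 10 or more counts of them, whereas the like number was at most 4 for any other library. Values of the named chemokines that this library moved most are given with and without it. The labelled cell type was checked against 15 MK and platelet markers, whose summed level was 1478 to 1654 CPM in MKs cultured alone and 828 to 1112 CPM in cocultures, and none of the 15 was called changed by edgeR (3 were lower and none higher at an unadjusted p under 0.05, and DESeq2 called 2 lower). Libraries of MKs cultured alone also held 84786 to 86948 CPM of 11 neutrophil markers.

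The 10 genes lie in 4 places on 2 chromosomes (GENCODE vM21 annotation, GRCm38, the assembly of mm10). On chromosome 11, Cxcl16 is at chr11:70453983-70459984, Ccl2 and Ccl7 are neighbours at chr11:82035571-82037453 and chr11:82045712-82047525, and Ccl9, Ccl6, Ccl3 and Ccl4 follow each other at chr11:83572919-83578636, chr11:83587882-83593087, chr11:83647844-83649355 and chr11:83662584-83664683. On chromosome 5, Cxcl5 is at chr5:90759360-90761624, Cxcl1 at chr5:90891241-90893115 and Cxcl2 at chr5:90903871-90905938. Ccl9, Ccl6, Ccl3 and Cxcl16 are on the minus strand and the other 6 on the plus strand.

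RefSeq promoters (GRCm38.p6) were at hand for 5 of the 10, namely Ccl3, Ccl6, Ccl9, Cxcl1 and Cxcl2. The last 100 bases before the start are printed for neighbouring pairs that differed in the cultures, Cxcl1 with Cxcl2 and Ccl6 with Ccl9, 5′ to 3′ on the strand of the gene. Capitals mark matches to the kB motif GGNNTTTCC or to TATAA on either strand, and the windows are chr5:90891145-90891244 (plus), chr5:90903799-90903898 (plus), chr11:83593088-83593187 (minus) and chr11:83578637-83578736 (minus), in that order.
Cxcl1: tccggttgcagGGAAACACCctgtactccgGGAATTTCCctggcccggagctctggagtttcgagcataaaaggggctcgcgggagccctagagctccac
Cxcl2: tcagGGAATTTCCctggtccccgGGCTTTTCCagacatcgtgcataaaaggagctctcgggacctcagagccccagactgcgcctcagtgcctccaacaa
Ccl6: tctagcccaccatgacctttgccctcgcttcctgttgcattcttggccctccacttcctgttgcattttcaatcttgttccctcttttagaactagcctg
Ccl9: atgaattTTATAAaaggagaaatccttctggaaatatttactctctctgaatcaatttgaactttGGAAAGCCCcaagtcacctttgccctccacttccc

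Cxcl1 and Cxcl2 each held 2 kB matches, and they shared a run of 14 bases, GGGAATTTCCCTGG, that contains one of them. Ccl9 held 1 kB match at 35 to 27 bases before its start and 1 match to the AP-1 letters, and Ccl6 held no match to any motif searched in its promoter of 250 bases before to 50 after the start. Ccl6 and Ccl9 nevertheless shared a run of 13 bases, GCCCTCCACTTCC. Of 32851 mouse promoters of the same length, 5.82% held the kB letters on either strand and 24.9% the TATA letters. The AP-1 letters, TGANTCA, were in 7.81% of them. The interferon response letters, GAAANNGAA, were in 8.56% of them and, among the 5 chemokine promoters, in that of Ccl3. These matches describe the letters of the promoters and were not tested as binding sites.

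Of the 10 chemokines, 9 passed the filter on low counts and Cxcl1 did not. Cocultures had higher Ccl2, Ccl7, Cxcl5, Cxcl2 and Cxcl16 and lower Ccl6, while Ccl3, Ccl4 and Ccl9 were not called. A call required a fold change of 2 or more, an adjusted p no higher than 0.05 and 1 CPM or more on average in either group. By the same rule 13.2% of the 11722 genes tested were called higher in cocultures and 7.31% lower. The median log2 fold change of the 9 tested chemokines was 2.65, against 0.03 over all genes tested. The filter asked for 4 libraries above its cutoff, which Ccl7, Ccl2 and Cxcl2 reached in 0, 2 and 3 libraries of MKs alone. These 3 genes therefore passed only with the help of the cocultures, the group where they were high, so the count and the median over the tested genes are descriptions and the p-values of these 3 carry the same limit. Genes of the lists below that were near 0 in MKs cultured alone, such as Cxcl12, Sparc and Marco, passed in the same way. The same limit holds for their p-values and for the counts and medians of their lists. For 5 of the 10 (Ccl2, Ccl7, Ccl4, Cxcl2 and Cxcl16) the lowest coculture lay above the highest library of MKs alone, and for 1 (Ccl6) the highest coculture lay below the lowest of them, against 19.3% and 21.1% of all genes tested. For Ccl4 this held in TMM-scaled CPM but not per total count.

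**Figure D1:**
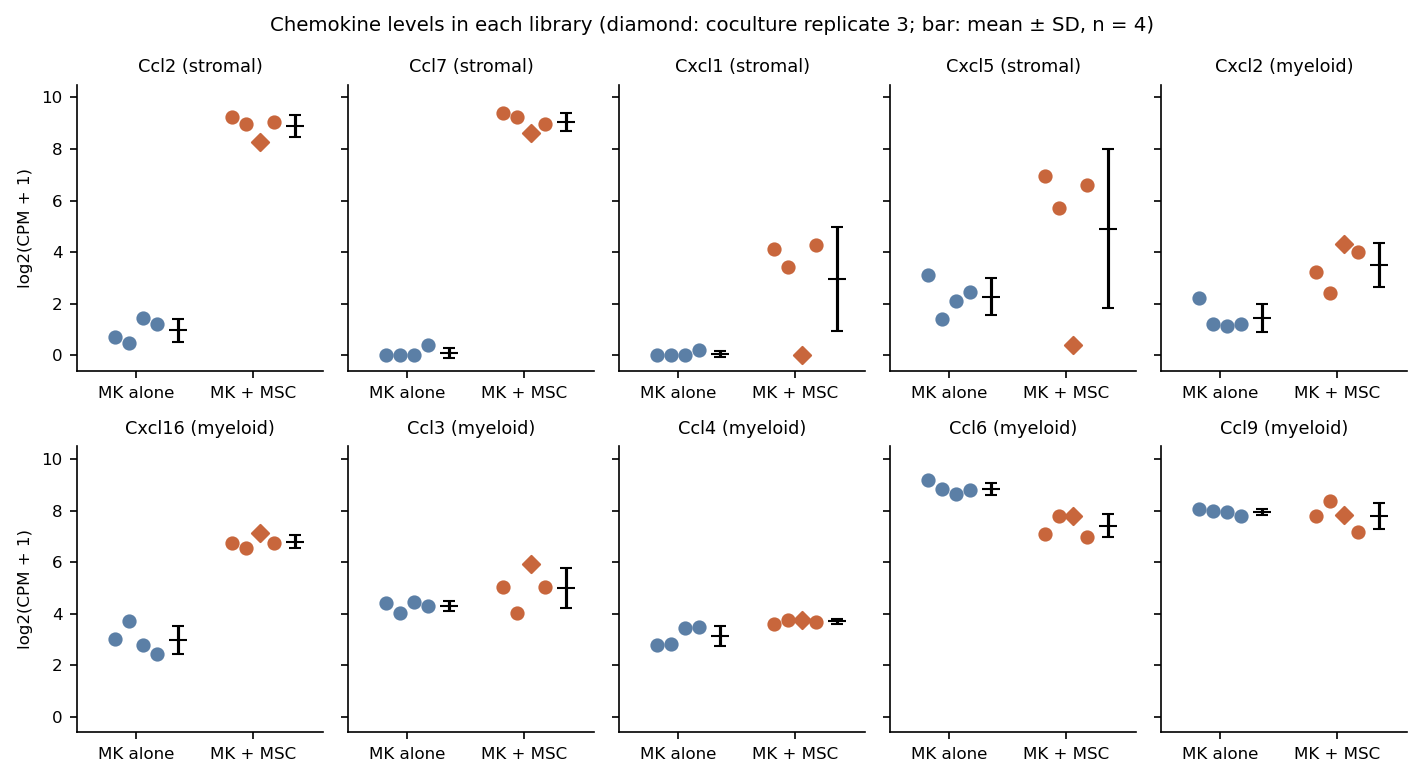
Level of each of the 10 chemokines in each library, as log2(CPM + 1) on the vertical axis, with MKs cultured alone in blue, cocultures in orange, coculture replicate 3 as a diamond and the mean ± SD (n = 4) as a bar. Ccl2 and Ccl7 separate the groups most widely, Ccl6 is lower in all 4 cocultures, and coculture replicate 3 is at 0 for Cxcl1 and near 0 for Cxcl5.

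Among the stromal chemokines, Ccl2 and Ccl7 were at or below a few CPM without MSCs and became abundant transcripts with them. Ccl2, the main monocyte attractant of marrow stroma, was at 0.660, 0.411, 1.77 and 1.30 CPM in MKs cultured alone (replicates 1 to 4) and at 610, 497, 307 and 530 CPM in cocultures. All 4 cocultures lay far above all libraries of MKs alone, and replicate 3 was the lowest of them. The mean was 1.03 ± 0.615 CPM without MSCs and 486 ± 128 CPM with them (SD, n = 4 each), a log2 fold change of 8.84 ± 0.51 (SE, 95% interval 7.68 to 9.99, adjusted p = 1.78e-05 by edgeR).

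Ccl7, the second Ccr2 ligand of this pair, had 0, 0, 0 and 2 counts in MKs cultured alone and 7096, 4706, 3744 and 2864 counts in cocultures. The cocultures corresponded to 670.2, 611, 390.4 and 495 CPM, with a mean of 542 ± 124 CPM (SD, n = 4). Ccl7 was thus all but undetected without MSCs and was in the same range as Ccl2 per kilobase with them. With 2 counts in all in MKs cultured alone, the ratio of scaled counts was 8066, with a 95% counting interval from 2233 to 66610, and the fitted log2 fold change was 12.64 ± 0.68 (SE, adjusted p = 1.51e-05). The CPM ratio of Ccl7 to Ccl2 was 1.10, 1.23, 1.27 and 0.934 in the 4 cocultures, with no length adjustment. Ccl2 and Ccl7 were called under each of the 16 settings run.

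Cxcl5, a neutrophil attractant, was at 7.70, 1.64, 3.31 and 4.54 CPM in MKs cultured alone and at 122, 51.4, 0.313 and 97.7 CPM in cocultures. Cocultures 1, 2 and 4 were above every library of MKs alone and coculture replicate 3 was below all of them, with 3 counts. The log2 fold change was 4.0 ± 1.25 (SE, adjusted p = 0.0483). Without coculture replicate 3 it was 4.48 (adjusted p = 8.09e-08), and leaving out any 1 of the other 7 libraries put the adjusted p between 0.0753 and 0.120, and the call was lost.

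Cxcl1, a close relative of Cxcl2, had 0, 0, 0 and 1 counts in MKs cultured alone and 174, 76, 0 and 108 counts in cocultures. Cocultures 1, 2 and 4 held 16.4, 9.86 and 18.7 CPM and replicate 3 held none, and this is the library in which Cxcl5 was nearly lost as well. Because the low counts kept Cxcl1 out of the test, the ratio of scaled counts of 314 (95% counting interval 55.9 to 12425) is given with no p. Cxcl1 passed the filter in 5 of the 8 fits with 1 library left out, through the cocultures alone. It was called without coculture replicate 3, the library at 0 (log2 fold change 8.20), and not called without any 1 library of MKs alone (7.35 to 9.5, adjusted p = 0.0621 to 0.0748). With no filter it was called at 7.75 (adjusted p = 0.0182). Which genes were fitted followed from the same counts, so these values are descriptions.

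MSC markers moved with the stromal chemokines. Of 13 MSC markers, 10 had counts and 8 were tested, of which 5 were called higher and 1, Nt5e, lower (median log2 fold change 6.24), against 13.2% and 7.31% of all genes tested. Their summed level was 79.6 to 102 CPM in MKs cultured alone and 1146 to 3750 CPM in cocultures, and Lepr, Kitl and Postn were at 0 in coculture replicate 3. Most of the sum in MKs cultured alone was Nt5e, at 76.5 CPM on average there and 6.02 CPM in cocultures. Sparc, a matrix protein and the most abundant of them, had a log2 fold change of 10.95 ± 0.64 (SE, adjusted p = 1.80e-05). Set against these markers, cocultures held 21.4, 13.3, 26.8 and 20.2 Ccl2 counts and 23.5, 16.3, 34.1 and 18.9 Ccl7 counts per 100 MSC marker counts, and replicate 3 had the highest value of both. Cxcl1 and Cxcl5 went the other way in that library, with 0 and 0.0273 per 100 against 0.263 to 0.712 and 1.37 to 4.29 in the other 3 cocultures. The part of MSC RNA in these results was not tested, and in bulk RNA a change in the number of cells of a type and a change in RNA per cell cannot be told apart.

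Among the myeloid chemokines, Cxcl16 and Cxcl2 rose, Ccl6 fell, and Ccl3, Ccl4 and Ccl9 were not called. Cxcl16, a membrane-bound chemokine of macrophages and dendritic cells, was at 7.04, 12.3, 5.86 and 4.38 CPM in MKs cultured alone and at 106, 92.8, 139 and 107 CPM in cocultures. The 4 cocultures were close to each other and all above MKs cultured alone. The mean went from 7.40 ± 3.46 to 111 ± 19.6 CPM (SD, n = 4 each), a log2 fold change of 3.90 ± 0.37 (SE, 95% interval 3.05 to 4.75, adjusted p = 0.000157), and the call held under each of the 16 settings.

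Cxcl2, which activated macrophages and neutrophils release, was at 3.74, 1.34, 1.22 and 1.30 CPM in MKs cultured alone and at 8.5, 4.28, 19.1 and 15.2 CPM in cocultures. The groups did not overlap. Coculture replicate 3, which lacked Cxcl1, had the highest Cxcl2 after TMM scaling, whereas per total count replicate 4 was above it. The log2 fold change was 2.65 ± 0.71 (SE, 95% interval 1.05 to 4.24, adjusted p = 0.0266), and 2.35 without coculture replicate 3. The call was lost when MKs alone replicate 2, 3 or 4 or coculture replicate 4 was left out, with adjusted p = 0.0884, 0.0910, 0.0944 and 0.0629.

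Ccl6 was the most abundant of the 10 in MKs cultured alone, and it is a mouse CC chemokine of neutrophils and macrophages. It was at 579, 451, 395 and 438 CPM in MKs cultured alone and at 136, 221, 220.3 and 125 CPM in cocultures, with every coculture below every library of MKs alone. The mean fell from 466 ± 79.0 to 175 ± 52.4 CPM (SD, n = 4 each), a log2 fold change of -1.41 ± 0.25 (SE, 95% interval -1.98 to -0.84, adjusted p = 0.00445). When libraries were scaled to the MK and platelet markers instead, the median of all genes moved to 0.77, 30% of genes were called higher and 3.08% lower, and Ccl6 was at -0.64 (adjusted p = 0.131), which is -1.42 relative to that median.

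Ccl9, the neighbour of Ccl6 and a ligand of Ccr1 as well, was at 269, 254, 248 and 220.3 CPM in MKs cultured alone and at 223, 326, 228 and 142 CPM in cocultures. The groups overlapped, and the log2 fold change was -0.11 ± 0.25 (SE, 95% interval -0.67 to 0.45, adjusted p = 0.792). Its sign was positive under scaling to the MK and platelet markers (0.66) and without coculture replicate 4 (0.11), and it was called in neither. The CPM ratio of Ccl6 to Ccl9, which does not depend on scaling between libraries, was 2.15, 1.78, 1.59 and 1.99 in MKs cultured alone and 0.609, 0.677, 0.967 and 0.882 in cocultures. The ratio of these neighbouring genes was lower in every coculture, with no overlap between groups, and was not tested.

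Ccl3 and Ccl4, neighbouring genes for related macrophage and T cell attractants, differed less between groups. Ccl3 was at 20.2, 15.1, 20.8 and 18.8 CPM in MKs cultured alone and at 31.5, 15.4, 59.1 and 31.6 CPM in cocultures, where replicate 3 was the highest and replicate 2 lay within the range of MKs alone. The log2 fold change of Ccl3 was 0.88 ± 0.42 (SE, adjusted p = 0.170), and it was 0.47 (adjusted p = 0.136) without coculture replicate 3. Scaling to the MK and platelet markers gave 1.65 for Ccl3 (adjusted p = 0.0237), or 0.88 relative to the median of all genes. Ccl4 was at 5.94, 6.06, 9.94 and 10.2 CPM in MKs cultured alone and at 11.1, 12.46, 12.6 and 11.9 CPM in cocultures, with every coculture above every library of MKs alone by a small margin. Per total count, without the TMM factor, coculture replicate 3 was below MKs alone replicates 3 and 4 for Ccl4. The log2 fold change of Ccl4 was 0.58 ± 0.44 (SE, adjusted p = 0.379).

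**Figure D2:**
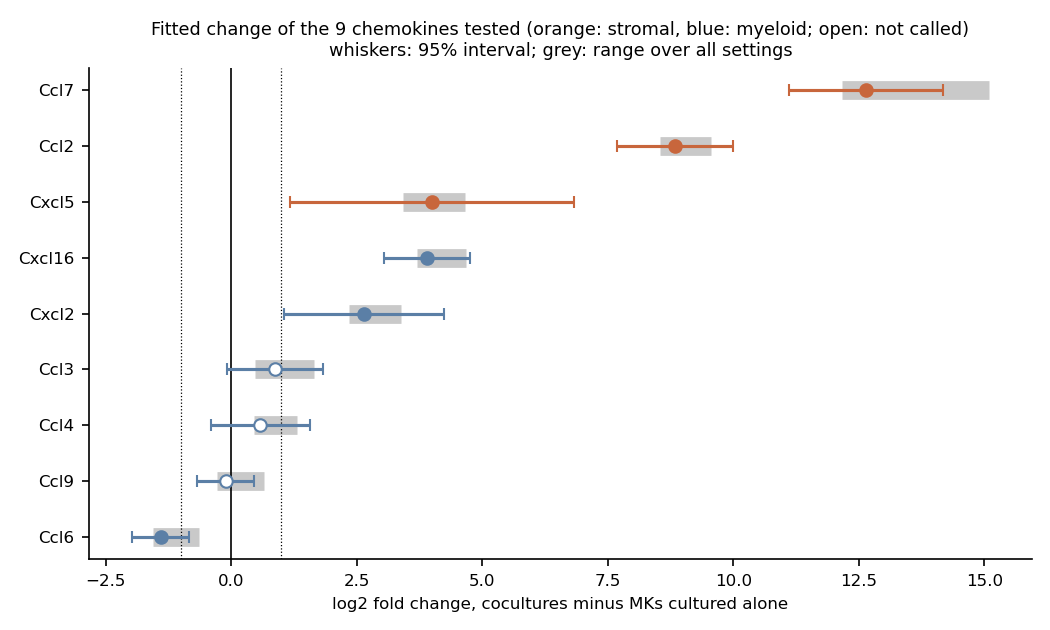
Log2 fold change of the 9 tested chemokines, cocultures minus MKs cultured alone, with 95% intervals as whiskers and the range over all 16 settings as a grey band; stromal chemokines are orange, myeloid ones blue, open symbols were not called, and dotted lines mark a fold change of 2. Ccl7 and Ccl2 lie at 12.64 and 8.84, Cxcl5 and Cxcl16 near each other at 4.0 and 3.90, and Ccl6 alone is called below 0.

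Markers of other myeloid cells moved in both directions with these genes. For the counts of this paragraph, the shares over all genes tested were 13.2% called higher and 7.31% lower. Of 11 macrophage markers, 10 were tested and 9 were called higher, and their summed level went from 173 to 235 CPM in MKs cultured alone to 1138 to 1524 CPM in cocultures. Marco was at 0 in all libraries of MKs cultured alone and Fcgr1 in coculture replicate 3, and Csf1r, the most abundant, had a log2 fold change of 1.33 ± 0.30 (SE, adjusted p = 0.0127). All 4 monocyte markers and all 11 neutrophil markers were called lower, with summed levels of 1213 to 1468 against 121 to 267 CPM and 84786 to 86948 against 4518 to 10267 CPM. Their most abundant genes were Ly6c2, at -2.70 ± 0.25, and S100a8, at -3.46 ± 0.42 (SE). Of the other marker lists, 4 of 8 B cell, 3 of 3 T and NK cell, 1 of 2 endothelial and 4 of 6 eosinophil, basophil and mast cell markers were called lower and none higher, also at an unadjusted p under 0.05 or by DESeq2, with Ms4a1 at -2.82, Nkg7 at -3.20, Tek at -1.68 and Prg2 at -5.26 as the most abundant, while Itgb3, the most abundant MK marker, was at -1.20 (adjusted p = 0.110). With 1 library left out in turn, Tek kept its call in 4, Nkg7 in 2 and Ms4a1 in 6 of 8 fits. Per 100 macrophage marker counts, Cxcl16 was at 2.31 to 5.25 in MKs cultured alone and 6.09 to 9.40 in cocultures, whereas Ccl6 was at 185 to 335 and 11.0 to 14.5, and Ccl9 at 108 to 155 and 12.4 to 21.4. On that scale Cxcl2 overlapped between groups, at 0.569 to 2.16 in MKs cultured alone and 0.281 to 1.34 in cocultures, and Ccl3 (6.43 to 11.7 and 1.0 to 3.88) and Ccl4 (2.58 to 5.38 and 0.818 to 1.05) were lower in every coculture. The part of these cell types in the chemokine results was not tested.

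Divided by length (CPM per kilobase of the median annotated transcript), levels can be compared between genes. In MKs cultured alone, Ccl6 led at 599.9 ± 102, followed by Ccl9 at 145.5 ± 11.8, Ccl3 at 24.4 ± 3.34 and Ccl4 at 12.2 ± 3.57 CPM per kilobase (SD, n = 4), and none of these 4 overlapped with the next. The other 6 were below 5 on average, and Cxcl16, Cxcl5, Cxcl2 and Ccl2 followed each other with overlapping ranges. In cocultures Ccl7 at 676 ± 155 and Ccl2 at 509 ± 135 came first and overlapped with each other, and every library of Ccl2 was above every library of Ccl6 at 226 ± 67.6. Ccl9 at 135 ± 44.4, Cxcl16 at 66.9 ± 11.8, Ccl3 at 44.9 ± 23.7 and Cxcl5 at 39.5 ± 31.3 came next, and Ccl4, Cxcl1 and Cxcl2 were the lowest. The order of Cxcl16, Ccl3 and Cxcl5 in cocultures, and that of Ccl2 and Cxcl2 in MKs cultured alone, changed when the longest coding transcript was used as the length.

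As shares of the summed CPM per kilobase of all 10, the 4 stromal chemokines made up 0.180% to 0.610% in MKs cultured alone and 78.3%, 69.7%, 57.0% and 76.7% in cocultures 1 to 4. The chemokine transcripts of MKs cultured alone were mostly Ccl6, at 72.2% to 78.4%, with 16.6% to 20.7% of Ccl9. In cocultures Ccl7 took 34.3% to 42.0% and Ccl2 22.6% to 34.2%, and Ccl6 was left with 8.77% to 20%. In CPM, the summed stromal chemokines went from 2.05 to 8.36 up to 698 to 1419, with no overlap. The summed myeloid chemokines went from 681 to 884 down to 432 to 678, a narrow gap in TMM-scaled CPM. Per total count, without the TMM factor, the myeloid sum of coculture replicate 2 was above that of MKs alone replicates 3 and 4. Ccl6 was the only myeloid chemokine called lower, and 4 of the 6 had a positive log2 fold change (median 0.73). With the longest coding transcript as the length, the stromal share was 0.358% to 1.19% in MKs cultured alone and 86.2%, 80.8%, 69.1% and 84.9% in cocultures, and Ccl6 was left with 4.82% to 12.2%. These shares and sums were not tested.

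**Figure D3:**
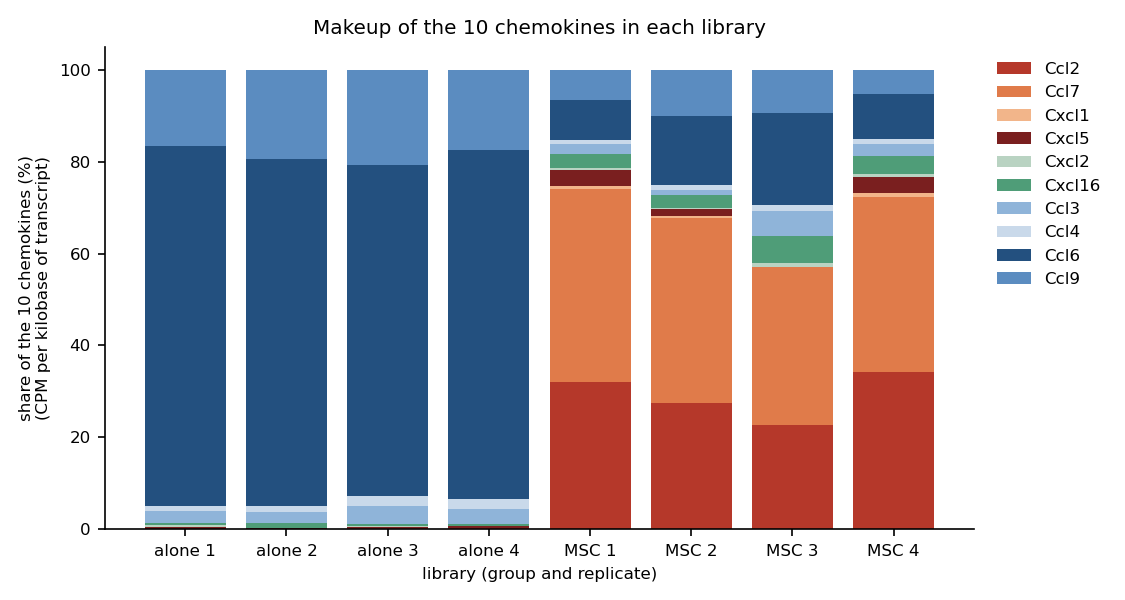
Stacked share of each chemokine in the summed CPM per kilobase of all 10, in percent, for each of the 8 libraries. Ccl6 and Ccl9 fill nearly all of the bar in MKs cultured alone, and Ccl7 with Ccl2 fill most of it in the 4 cocultures, least so in replicate 3, where the stromal share is 57.0%.

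Over the 8 libraries, the genes closest to each chemokine were found among genes with a mean of at least 10 CPM in a group, by the root mean square difference of log2(CPM + 1) centred on each gene's mean. Ccl2 was closest to Prss23 (0.299), Igfbp7 (0.346) and Fgf7 (0.372), and Ccl7 to Mmp12 (0.281), Sparc (0.348) and Serpinh1 (0.357). Cxcl1 was closest to Zfpm2 (0.127), Klhl13 (0.205) and Bmper (0.212), and Cxcl5 to Slc5a3 (0.565), Kitl (0.586) and Ptprf (0.600). Cxcl16 was closest to Bcat1 (0.272), Jam3 (0.282) and Npr2 (0.305), Cxcl2 to Hist1h2bc (0.363), Mcoln2 (0.374) and Tmem126a (0.375), and Ccl6 to A630001G21Rik (0.193), Dck (0.199) and Tex2 (0.215). The genes with small differences between groups were closest to Gpt2 (0.149), Cask (0.203) and Ghitm (0.208) for Ccl3, to Raly (0.133), Zbtb45 (0.143) and Yipf3 (0.161) for Ccl4, and to Ccna2 (0.124), Lsm6 (0.157) and Vkorc1l1 (0.163) for Ccl9. Cxcl5 had the loosest match of the 10. These distances over 8 libraries in 2 groups are descriptions.

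Other chemokine ligands were higher or not called. Of 30 listed, 14 had counts and 11 were tested, of which edgeR called 5 higher, none lower and 6 neither, with a median log2 fold change of 2.07 (none was lower at an unadjusted p under 0.05 or by DESeq2). The 5 were Cxcl12, Cxcl14, Ccl5, Cxcl9 and Cxcl3, and the last 2 stayed under 10 CPM on average. Cxcl9, at 5.23, was at 6.55 CPM in cocultures and at 1.68 CPM without replicate 3 (log2 fold change 3.22), and Cxcl3, at 4.42, was at 5.68 and 2.96 CPM (3.34). Cxcl9 lost its call without any 1 library of MKs alone (adjusted p = 0.0627 to 0.0683), and Cxcl3 without MKs alone replicate 1, 2 or 4 (0.0592 to 0.0755). Cxcl12, the niche chemokine of marrow stroma, went from 0.107 to 59.1 CPM on average (log2 fold change 8.68 ± 1.12 (SE), adjusted p = 0.000775). Without coculture replicate 3, which was at 5.84 CPM, the coculture mean of Cxcl12 was 76.9 CPM (8.98). Cxcl12, Cxcl14, Cxcl9 and Cxcl3 had at most 5 counts in any library of MKs cultured alone and passed the filter only through the cocultures. Their p-values and calls carry that limit. Cxcl14 was at 0 in all 4 libraries of MKs cultured alone and at 18.8 CPM on average in cocultures, at least 187-fold higher when set against 3 counts over the group. Ccl5, a chemokine known from T cells, platelets and macrophages, went from 13.8 to 57.7 CPM (2.07 ± 0.62, adjusted p = 0.0415). Replicate 3 carried much of that mean: without it Ccl5 was at 29.4 CPM (1.07, adjusted p = 0.00193), and the call was lost without any 1 library of MKs alone or without coculture replicate 4 (adjusted p = 0.0558 to 0.109). Pf4 and Ppbp, the chemokines that MKs pack into platelet granules, were not called: Pf4 was at 838 and 1067 CPM (0.35 ± 0.28, adjusted p = 0.409) and Ppbp at 218 and 278 CPM (0.35 ± 0.22, adjusted p = 0.282). Without coculture replicate 3, which was at 1595 CPM, Pf4 was at 890 CPM in cocultures (0.07, adjusted p = 0.792). Ppbp was at 294 CPM without that library (0.42, adjusted p = 0.0779). Scaling to the MK and platelet markers raised the count of ligands called higher from 5 to 8, and the share of all genes called higher from 13.2% to 30%.

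The receptors of the chemokines that draw monocytes and neutrophils were lower. Of 24 receptors listed, 17 had counts and 15 were tested, with 1 called higher, 3 lower and 11 neither (median log2 fold change -0.76). The shares over all genes tested were 13.2% higher and 7.31% lower. Ccr2, the receptor of Ccl2 and Ccl7, fell from 172 to 29.8 CPM (-2.52 ± 0.32 (SE), adjusted p = 0.000633), and Cxcr2, the receptor of Cxcl1, Cxcl2 and Cxcl5, fell from 284 to 29.0 CPM (-3.29 ± 0.33, adjusted p = 0.000191). Cxcr4, the receptor of Cxcl12, fell from 91.0 to 8.10 CPM (-3.49 ± 0.66, adjusted p = 0.00560). Ccr1, which Ccl3, Ccl6 and Ccl9 bind, went from 109 to 58 CPM, short of a fold change of 2 (-0.90 ± 0.20, adjusted p = 0.0110), and Cxcr6, the receptor of Cxcl16, was at 11.3 and 16.1 CPM (0.51 ± 0.75, adjusted p = 0.664). Without coculture replicate 3, Cxcr6 was at 6.66 CPM in cocultures and its sign turned (-0.75, adjusted p = 0.0664). Without coculture replicate 3, when 20.6% of all genes were called higher and 15.4% lower, 7 receptors were called lower. The monocyte and neutrophil markers that moved with Ccr2 and Cxcr2 are given above, and their part was not tested.

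Genes that switch chemokine transcription on or off did not follow one direction. Of 21 cytokines, receptors and NF-kB genes, all tested, none was called higher and 2 were called lower by edgeR, with a median of 0.11, and 3 were higher at an unadjusted p under 0.05. Over all genes tested, 13.2% were called higher and 7.31% lower. Il1b, an inflammatory cytokine, went from 37.4 to 13.7 CPM (-1.44, adjusted p = 0.0366), a call kept only without coculture replicate 1 or 3 among the fits with 1 library left out (0.0631 to 0.0944 in the other 6). Nfkb1, an NF-kB subunit, went from 86.6 to 39.5 CPM (-1.13, adjusted p = 0.00695). These counts depended on scaling and tool: DESeq2 called 3 of the 21 higher (Il1r1, Nfkb2 and Relb), and scaling to the MK and platelet markers called 5 higher and none lower. Without coculture replicate 3, edgeR called 3 higher and 5 lower.

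Genes that hold chemokines at the cell surface or cut them changed more. Of 10 tested, 6 were called higher and 2 lower, with a median of 2.61, against 13.2% and 7.31% of all genes tested. The syndecans, heparan sulfate proteoglycans that bind chemokines, were all higher, with log2 fold changes of 6.44 for Sdc3, 4.10 for Sdc2, 3.90 for Sdc1 and 2.12 for Sdc4. Mmp12, the macrophage metalloproteinase, went from 5.34 to 2363 CPM (8.79 ± 0.24 (SE), adjusted p = 4.72e-07), and Mmp14, which can cleave Ccl7, was at 3.09. Dpp4, a peptidase that trims chemokines, was lower at -3.52, and Mmp9, which neutrophils carry in granules, at -2.92. Adam10, which sheds Cxcl16, was at -0.75 (adjusted p = 0.0468) and below the fold limit.

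**Figure D4:**
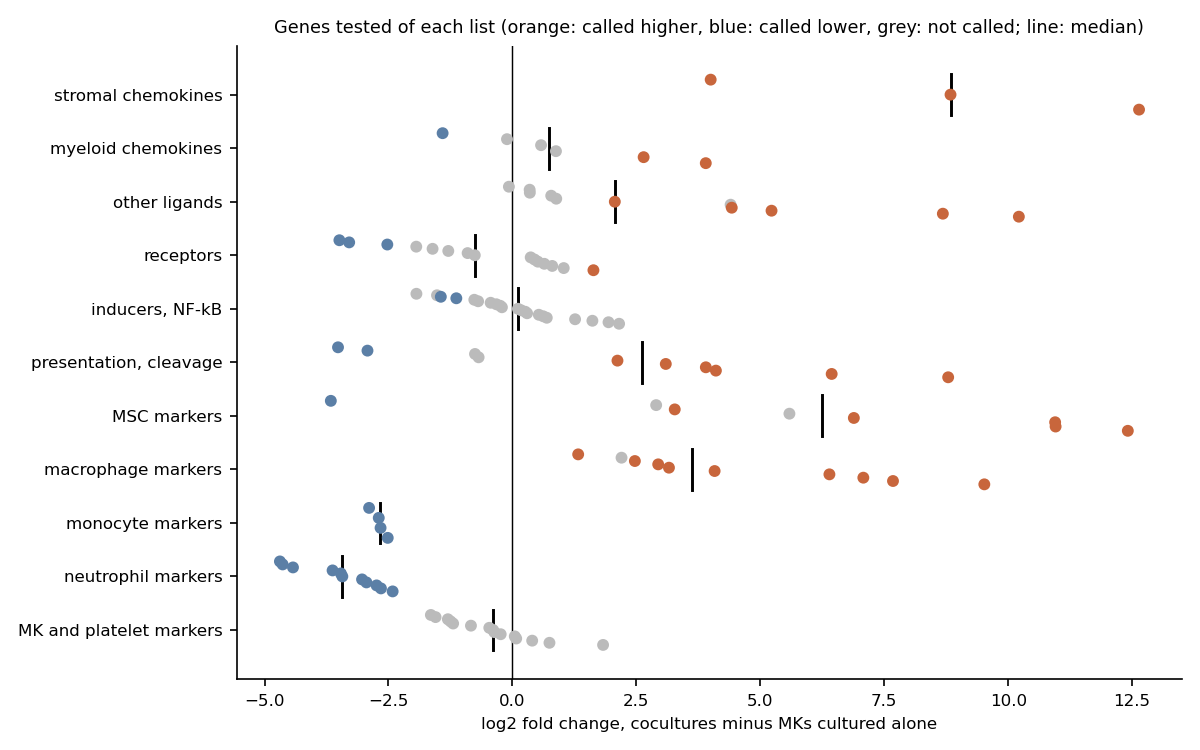
Log2 fold change, cocultures minus MKs cultured alone, of each tested gene of the chemokine, receptor, inducer, presentation and cell marker lists, orange where called higher, blue where called lower and grey otherwise, with a black line at the list's median. The stromal chemokines and MSC markers have medians of 8.84 and 6.24, and the monocyte and neutrophil markers medians of -2.68 and -3.43; Cxcl14 and Marco, at 0 in all MKs cultured alone, are drawn at fitted values that depend on the prior count.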

How the data were processed

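Bulk RNA-Seq counts of 8 murine libraries were analysed, grouped and numbered by their labels. Raw counts of reads per gene were deposited, for which the authors cleaned paired-end SMART-Seq HT reads with fastp and quantified them against mm10 transcripts with kallisto; kallisto, DESeq2 and mm10 are also named in the submitters' processing notes. How counts were summed over transcripts, and whether strand was used, is not given in the sources used here, so overlapping genes and near-identical copies are uncertain.

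All levels are CPM scaled by TMM. Groups were compared by the robust quasi-likelihood test of edgeR 4.0.16 (R 4.3.3), without covariates, on the 11722 genes that filterByExpr kept, with Benjamini-Hochberg adjustment over all genes tested. Standard errors were taken from the fold change and its F statistic. Calls needed a fold change of 2, an adjusted p of 0.05 and 1 CPM. The study gives 4 mice per group, but the labels tie no library to an animal, so p-values measure the spread between these libraries, part of which may be technical. The authors' DESeq2 design held a batch term; the batches are not named in the sources used here and none was fitted. Intervals of fold changes rest on the standard errors of the fit and include the spread between libraries. Intervals of count ratios, and the floors, cover counting error only, since reads carry no molecular identifiers. For count ratios of low genes exact intervals were used (scipy 1.17.1).

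The members and gene lists were chosen with earlier results of these data known. Named genes were the 10 chemokines, up to 8 called genes of each related list with 10 CPM, Pf4, Ppbp, Cxcl12, receptors of the chemokines, the most abundant gene of each marker list, and the 3 closest genes per chemokine; Adam10 and the marker genes at 0 were named after their values were seen. Alternatives were DESeq2 1.42.0, library size scaling, scaling to MK and platelet markers, no filter, the replicate block, glmTreat and each library left out. DESeq2 with the block was added after seeing the data. The result of 1 receptor is not reported here. The test was checked on simulated data with the same spread for every gene and no library like coculture replicate 3. That check does not cover calls that hinge on that library, or genes near 0 in a group.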

Additional observations from a re-analysis of the deposited data

Results flagged for a closer look

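For 3 chemokines a single library was flagged as far from the other 3 of its group on the log2(CPM + 1) scale. Among 20 groups examined, chance gives about 1 in 20. That rate does not apply to Ccl7 and Cxcl1, since any count stands out from 3 libraries at 0. Coculture replicate 3 was not flagged but departed further, for Cxcl5 (0.313 against 51.4 to 122 CPM) and Cxcl1 (0 against 9.86 to 18.7 CPM). Ccl7 in MKs cultured alone was at 0.41 in replicate 4 and 0 in the others, which is 2 counts. Cxcl1 in MKs cultured alone was at 0.22 in replicate 4 and 0 in the others, which is 1 count. Cxcl2 in MKs cultured alone was at 2.24 in replicate 1, or 3.74 CPM against 1.22 to 1.34 CPM in the other 3, which is still below the 4.28 CPM of the lowest coculture.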

How the results depend on the processing

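The directions of the tested chemokines held under the 7 other settings with all libraries and with each of the 8 libraries left out, except for Ccl9, which was at 0.66 after scaling by the summed MK and platelet markers and at -0.28 to 0.11 with 1 library left out, the latter without coculture replicate 4. Of the 10 chemokines, 5 were called higher, against 3 with the replicate block, 3 with glmTreat and 3 to 6 with 1 library left out. That number was 4 with library size scaling, and 6 with marker scaling and with no filter. Over the 16 settings, the main one included, Cxcl5 was called in 6 and Cxcl2 in 10. In the main setting 1 chemokine was called lower, against 0 with marker scaling, 0 with glmTreat and 1 with any 1 library left out. Other ligands called higher numbered 5, against 8 with marker scaling, 2 with the replicate block and 2 to 7 with 1 library left out. Receptors called higher numbered 1, against 0 with the replicate block, 0 with glmTreat and 0 to 1 with 1 library left out, and receptors called lower 3, against 3 to 7. Inducers called higher numbered 0, against 3 by DESeq2, 1 with library size scaling, 5 with marker scaling, 2 by DESeq2 with the replicate block and 0 to 3 with 1 library left out; those called lower numbered 2, against 1, 0 and 1 with library size scaling, marker scaling and the replicate block, 0 with glmTreat and 1 to 5 with 1 library left out. Presentation genes called lower numbered 2, against 1 with the replicate block. The shares of all genes called higher and lower moved with the setting as well. They were 9.35% and 4.89% with the replicate block, 6.98% and 2.58% with glmTreat, and 15.8% and 10.7% by DESeq2. With 1 library left out they were 8.6% to 20.6% and 4.42% to 15.4%. The causes of these shifts were not tested, apart from glmTreat, which asks for more than a fold change of 2 by construction.

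The replicate number was tried as a block because the labels number both groups alike. Deviations of same-numbered libraries correlated at 0.370, 0.0198, 0.150 and 0.0280 across genes, not all above 0.1, so the number was not taken as a pairing, and not each correlated best with its own number. Whether it marks a batch of the authors' design was not tested. Under the block Cxcl5 (adjusted p = 0.244) and Cxcl2 (0.102) lost their calls and Ccl6 kept its call (0.0274). Marker scaling called 30% of all genes higher and 3.08% lower, against 13.2% and 7.31%. Without coculture replicate 3 the shares were 20.6% and 15.4%. The counting depth limits Cxcl1 and Ccl7 in MKs cultured alone, which lie at or under the floor of 3 counts.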

Other observations

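Coculture replicate 3 divided the chemokines further than the 10 described. Ccl8, a monocyte attractant related to Ccl2, had no count in any library of MKs cultured alone or in coculture replicate 3, and over the 4 cocultures it was at least 52.0-fold higher when set against 3 counts over the group. Cxcl1 was at 0 and Cxcl5 at 3 counts in the same library, while Cxcl2, Ccl3 and Cxcl16 had there the highest TMM-scaled CPM of all 8 libraries. The TMM factor of that library was 0.766, against 1.06, 1.10 and 1.11 in the other cocultures. Per total count, without that factor, coculture replicate 4 was above replicate 3 for Cxcl2 and Cxcl16. All genes of this paragraph were singled out after their values were seen, and the split was not tested.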
